A study of Mus musculus with 48 samples.

Results

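The expression of 10 genes of the interleukin-6 (IL-6) family and of acute inflammation was followed across the series: the cytokines Il6, Il11, Lif and Osm, the oncostatin M receptor subunit Osmr, the feedback inhibitor Socs3, the colony stimulating factors Csf3 and Csf2, the inducible nitric oxide synthase Nos2 and the cytokine Tnf. They were chosen by name with earlier results of these data known, so counts of called genes among them are descriptions. Each was read from its brightest single-symbol probe set, and they are 10 of the 22180 gene symbols measured. The tissue was whole mouse squamocolumnar junction and cardia, the border of oesophagus and stomach, on 48 Affymetrix arrays in 16 groups of 3. The study concerns Barrett oesophagus, in which columnar lining replaces squamous lining, and its progression in a mouse model with an interleukin-1 beta (IL-1 beta) transgene, labelled pL2.

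In the published model of this kind the Epstein-Barr virus ED-L2 promoter drives human IL-1 beta in squamous epithelium. Chow-fed mice, wild type (WT) or pL2, came from 2 animal facilities, MRI and Freising, and both genotypes on high fat diet (HFD) came from Freising. All of these mice, on either diet, were 12 months old. A line labelled FXR, after the bile acid receptor, and its cross pL2_FXR came from MRI at 12 months; what was done to FXR is not given in the sources used here. An IL8 line, which also carried the transgene, was sampled at 9 and 12 months. A further 6 lines, all with the transgene, had floxed Notch1, floxed Notch2 or a Notch2 intracellular domain allele (Notch2IC_LacZ), each with an Lgr5 (stem cell) or a Dclk (tuft cell) allele; they received tamoxifen at 3 to 6 months and were sampled at 9 to 13 months. The FXR, pL2_FXR, IL8 and Notch groups were all fed chow, and the IL8 and Notch groups also came from MRI. Thus 12 groups (36 arrays) carried the transgene and 4 groups (12 arrays) did not. The labels do not say that the 3 samples of a group were separate animals, so p-values measure the spread between these samples only, and replicate numbers are names in accession order.

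IL-6 family cytokines bind a private receptor subunit that pairs with the shared subunit gp130 (Il6st) and act through JAK kinases and the transcription factor STAT3, which switches on Socs3, an inhibitor of the same receptors. IL-1 beta and TNF act mainly through NF-kB, which induces several of these cytokines in stromal, epithelial and myeloid cells. Csf3 and Csf2 drive the production and survival of neutrophils and other myeloid cells, and Nos2 makes nitric oxide in activated macrophages and inflamed epithelium.

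The promoters of 4 of these genes, Il6, Il11, Lif and Socs3, show the kinds of binding motif on which such signals act. Of the 10 genes, 7 were matched to RefSeq promoter sequences (build GRCm38.p6), and the 250 bases before the annotated start were searched on both strands for 3 motifs; Osm, Csf3 and Nos2 had no entry. The motifs were the STAT motif TTCNNNGAA, the AP-1 motif TGANTCA and the NF-kB motif, and matches are in capitals. Each sequence runs 5′ to 3′ on the strand of the gene and ends 1 base before the start. Il6, which was near the bottom of the array's range here, is shown because it holds matches to an AP-1 and an NF-kB motif; Lif holds an AP-1 match, Socs3 a STAT match, and Tnf, with the largest difference of the 10 genes, none of the 3 motifs in this window.
Il6 (chr5:30012864-30013113, + strand): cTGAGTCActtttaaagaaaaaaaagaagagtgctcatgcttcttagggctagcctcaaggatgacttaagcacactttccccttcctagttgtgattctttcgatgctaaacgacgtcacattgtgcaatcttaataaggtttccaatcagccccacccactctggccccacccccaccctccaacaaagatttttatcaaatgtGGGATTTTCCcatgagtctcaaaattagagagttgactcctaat
Lif (chr11:4257318-4257567, + strand): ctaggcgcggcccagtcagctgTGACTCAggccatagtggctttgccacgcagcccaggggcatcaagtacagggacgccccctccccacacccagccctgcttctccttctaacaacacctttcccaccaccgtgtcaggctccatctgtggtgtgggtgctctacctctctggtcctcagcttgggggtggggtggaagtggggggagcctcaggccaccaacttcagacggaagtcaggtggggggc
Socs3 (chr11:117969367-117969616, - strand): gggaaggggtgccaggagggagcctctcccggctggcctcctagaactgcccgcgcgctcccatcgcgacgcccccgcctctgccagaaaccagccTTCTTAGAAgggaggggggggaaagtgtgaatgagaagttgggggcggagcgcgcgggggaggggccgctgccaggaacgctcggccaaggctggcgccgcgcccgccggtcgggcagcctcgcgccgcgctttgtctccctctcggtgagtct
Tnf (chr17:35202008-35202257, - strand): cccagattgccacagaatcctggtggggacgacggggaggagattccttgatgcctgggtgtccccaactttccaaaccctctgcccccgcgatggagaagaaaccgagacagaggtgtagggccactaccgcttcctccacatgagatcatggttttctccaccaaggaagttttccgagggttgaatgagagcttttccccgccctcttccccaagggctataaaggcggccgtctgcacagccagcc
The AP-1 match of Il6 lay 249 to 243 bases and its NF-kB match 44 to 35 bases before the start, that of Lif 228 to 222 bases and the STAT match of Socs3 154 to 146 bases. Il11, not printed, held an AP-1 match 98 to 92 bases before the start in 1 of its 2 promoters. Osmr and Csf2, also not printed, held none of the 3 motifs. Among 32841 mouse promoters of the same length, 7.022% held the STAT motif, 6.751% the AP-1 motif and 3.901% the NF-kB motif. A match describes the letters only; no binding was measured.

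Values are log2 signals, so a difference of 1 is 2-fold, and the array medians lay between 4.03 and 4.27. Errors beside differences are standard errors of a limma model with 1 mean per group. A gene was called where its p, adjusted by Benjamini-Hochberg over the 15242 genes tested in a comparison, was below 0.05. Of the 10 genes 8 passed the filter, which asked for a level above that array's median in 3 or more arrays. Il6 was above it in 1 array and Csf2 in 0, so these 2 were not tested. Osmr, Socs3 and Tnf were above it in all 48 arrays, and Osm in 33, Lif in 29, Csf3 in 15, Il11 in 14 and Nos2 in 13.

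Several libraries stood apart in tissue makeup. Gastric epithelium markers were high in all arrays (means of 11.4 to 12.7), and squamous markers ranged from 6.83 to 10.4, lowest in the FXR line (6.83 to 8.09). The pL2_MRI_chow group, the reference for the IL8 line at 12 months, pL2_FXR and the 6 Notch lines, had low endothelial (4.72 to 6.21, against 6.80 to 7.35 in WT_MRI_chow) and smooth muscle means (7.38 to 9.35, against 10.4 to 10.8). A mean of hepatocyte or enterocyte markers above 8 was found in 9 arrays. In whole tissue, fewer cells of a type and less RNA per cell cannot be told apart.

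The effect of the IL-1 beta transgene was taken as the mean difference over 4 backgrounds, each with its own control: MRI chow, the FXR line, Freising chow and Freising HFD (12 transgenic and 12 control arrays). Tnf, Socs3, Osm and Lif rose, by 2.63-, 1.93-, 1.87- and 1.25-fold, and none of the 8 tested genes fell; for comparison, 35.6% of all tested genes were called, 16.1% of them higher and 19.5% lower as shares of all tested. The remaining 4, Osmr, Il11, Csf3 and Nos2, had estimates above 0 that did not pass the test. In the Freising chow background taken alone, none of the 8 was called.

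Among the ligands, Osm, a cytokine made largely by neutrophils, macrophages and activated T cells, had the largest difference. In the MRI chow background Osm stood at 4.65, 4.65 and 5.86 in the pL2 arrays and at 4.02, 3.88 and 3.81 in WT. In the FXR line Osm stood at 4.31, 5.26 and 4.45 with the transgene and at 4.13, 3.58 and 3.08 without it. The pL2 and control arrays did not overlap in either background, as was so, in the direction of higher, for 16.8% (MRI chow) and 13.9% (FXR line) of all tested genes. On HFD at Freising, Osm was 4.15, 6.43 and 4.62 in pL2 and 3.80, 3.70 and 3.97 in WT. These again did not overlap, as was so, in the direction of higher, for 11.4% of all tested genes. Replicate 2 of pL2 lay far above the rest. On chow at Freising the pL2 arrays, at 3.79, 4.35 and 3.86, overlapped the WT arrays at 3.93, 3.68 and 3.90. The mean difference over the 4 backgrounds was 0.91 ± 0.18 (limma, adjusted p = 0.000241), with 11 of 12 transgenic arrays above their control mean.

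Lif, leukaemia inhibitory factor, which keeps mouse embryonic stem cells undifferentiated and signals through Lifr and gp130, rose by a small amount. Its level was 4.23, 4.60 and 4.73 in pL2_MRI_chow against 3.80, 4.42 and 4.18 in WT_MRI_chow, and 4.23, 4.61 and 4.58 in pL2_Freising_HFD against 3.65, 3.84 and 3.92 in WT_Freising_HFD. In pL2_FXR it was 4.24, 4.10 and 4.09 against 4.09, 3.71 and 4.52 in FXR, a difference of 0.03 ± 0.23, and on chow at Freising 3.97, 4.38 and 4.48 against 3.68, 4.40 and 4.12, a difference of 0.21 ± 0.23. The HFD groups did not overlap, as was so, in the direction of higher, for 11.4% of all tested genes. Those of the other 3 backgrounds overlapped. The mean difference was 0.33 ± 0.11 (limma, adjusted p = 0.0236), higher in 9 of 12 arrays. It passed the threshold narrowly: without replicate 1 of WT_MRI_chow, replicate 2 of FXR or replicate 1 of WT_Freising_chow the limma adjusted p was 0.0553 to 0.0574, and without the arrays high in hepatocyte or enterocyte markers it was 0.0696.

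Il11, a cytokine linked to epithelial repair and fibrosis, had a mean difference of 0.29 ± 0.18 (limma, adjusted p = 0.230). Its pL2_MRI_chow arrays (3.95, 4.29 and 3.81) all lay above the WT_MRI_chow arrays (3.68, 3.73 and 3.43), as in 16.8% of all tested genes. On chow at Freising pL2 (3.34, 3.97 and 3.86) and WT (3.64, 3.57 and 3.65) overlapped. The highest Il11 group means were those of the IL8 line, 4.48 ± 0.35 (SD, n = 3) at 9 months and 4.41 ± 0.51 at 12 months, and these overlapped with pL2_MRI_chow. Il6 itself lay between 1.94 and 2.85 in the 12 control arrays and between 1.95 and 4.41 in the 36 transgenic arrays, with a median of 2.34 in the latter. Only replicate 2 of the IL8 line at 9 months, at 4.41, exceeded its array median. With no filter on low values, the mean transgene difference of Il6 was 0.06 ± 0.14 (limma, adjusted p = 0.805).

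**Figure D1:**
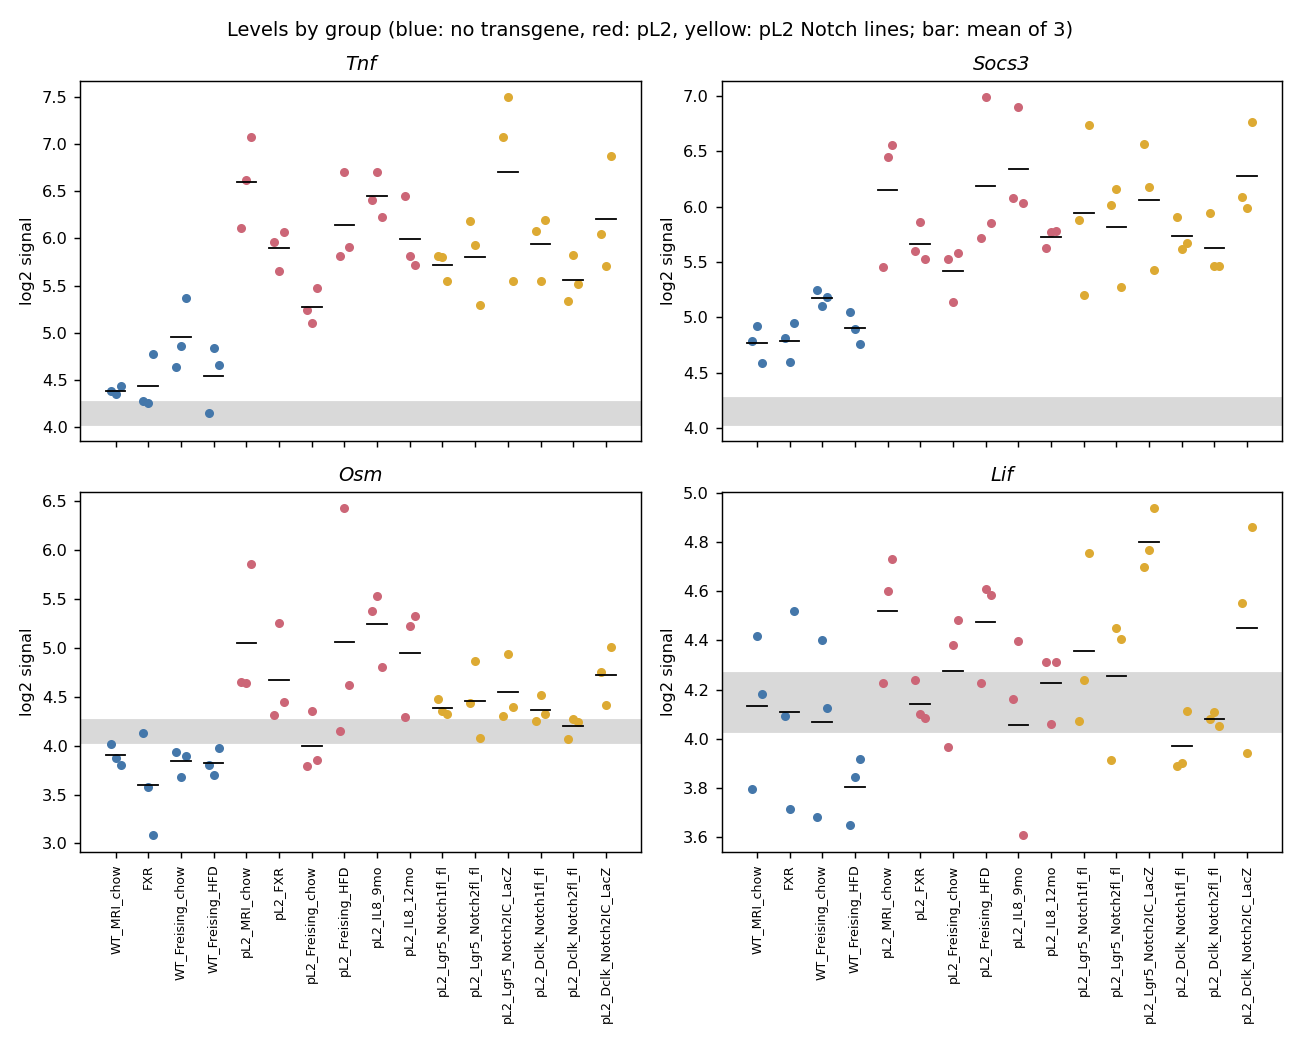
Log2 signal of Tnf, Socs3, Osm and Lif (y axes, each with its own range) in the 16 groups (x axis); points are arrays, bars are means of 3 and the grey band spans the 48 array medians. For Tnf, Socs3 and Osm the 4 groups without the transgene (blue) have the 4 lowest means, and for Lif the groups intermix. The share of all tested genes with such an order was not computed.

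Osmr, which pairs with gp130 to bind oncostatin M, lay well above the array medians in all 48 arrays (6.89 to 8.80). Its mean transgene difference was 0.31 ± 0.13 (limma, adjusted p = 0.0587). The pL2_FXR arrays (7.58, 8.23 and 7.53) lay above the FXR arrays (6.89, 7.36 and 7.02), as in 13.9% of all tested genes. The difference was 0.69 ± 0.26 (limma, adjusted p = 0.0812). At MRI on chow the difference was 0.02 ± 0.26. Osmr passed the threshold in the mean comparison when replicate 1 or 3 of pL2_FXR, replicate 2 of FXR, replicate 2 of pL2_Freising_chow or replicate 1 of pL2_Freising_HFD was left out, at limma adjusted p of 0.0292 to 0.0490, and with array quality weights, a sex-linked covariate or the compared groups alone (0.0235 to 0.0404).

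The other ligands and receptors of the family moved in both directions. Of 14 such genes listed, 11 were on the array and 9 were tested; in the mean transgene comparison 2 rose and 4 fell, with a list median of -0.08 against -0.01 for all tested genes. The shared subunit gene Il6st fell by 0.35 ± 0.08 (limma, adjusted p = 0.000946), Lifr, the LIF receptor, fell by 0.80 ± 0.17 and Cntfr, the receptor of ciliary neurotrophic factor, fell by 1.49 ± 0.30. The cytokine gene Ctf1 fell by 0.27 ± 0.09. Clcf1, another ligand, rose by 0.63 ± 0.18 and the interleukin-27 receptor gene Il27ra by 0.48 ± 0.15. The IL-6 receptor gene Il6ra did not pass (-0.08 ± 0.10, adjusted p = 0.584). Fibroblast, endothelial and smooth muscle markers were lower in the same comparison, in 9, 10 and 10 of 10 tested genes of each list; in the fibroblast list the array means were 7.87 to 8.74 in the 12 controls and 6.52 to 8.20 in the 12 transgenic arrays. Their part in the lower receptor signals was not tested.

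Socs3, which STAT3 induces and which blocks gp130 signalling, followed the pattern of Osm. In MRI chow mice it stood at 5.46, 6.45 and 6.55 with the transgene and 4.79, 4.92 and 4.58 without it. On HFD at Freising it was 5.71, 6.99 and 5.86 against 5.05, 4.89 and 4.76, and in the FXR line 5.60, 5.86 and 5.53 against 4.81, 4.59 and 4.95. Transgenic and control arrays were apart in these 3 backgrounds. That was so, in the direction of higher, for 16.8% (MRI chow), 11.4% (HFD) and 13.9% (FXR line) of all tested genes. On chow at Freising the values were 5.53, 5.14 and 5.58 against 5.24, 5.10 and 5.19, which overlap. The mean difference was 0.95 ± 0.16 (limma, adjusted p = 3.21e-05), with 11 of 12 arrays above their control mean. A second Socs3 probe set was dim (mean of 2.86) and correlated with the one used at r = 0.56 over the 48 arrays.

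Of 16 STAT3 response genes 11 rose and none fell in the mean transgene comparison, with a median of 0.47. The acute phase gene Saa3 rose by 4.40 ± 0.40 (limma, adjusted p = 4.03e-10) and the antibacterial lectin Reg3g by 3.60 ± 0.29 (adjusted p = 3.92e-11), both in 12 of 12 arrays. Lrg1, an acute phase glycoprotein, rose by 2.21 ± 0.28, the NF-kB cofactor Bcl3 by 1.30 ± 0.15, Ier3 by 0.75 ± 0.13 and the AP-1 subunit Fosl2 by 0.36 ± 0.08. The list of 12 JAK and STAT genes and their feedback inhibitors gave another count: 0 rose and 2 fell, with a median of -0.05. These were Socs2, another inhibitor of the family, which fell by 0.81 ± 0.17, and the phosphatase gene Ptpn11, which fell by 0.19 ± 0.05; Stat3 itself differed by 0.10 ± 0.07 (adjusted p = 0.304).

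Csf3, the granulocyte colony stimulating factor, reached 3.98, 4.36 and 5.28 in pL2_MRI_chow against 3.85, 3.57 and 3.51 in WT_MRI_chow. These arrays did not overlap, as was so, in the direction of higher, for 16.8% of all tested genes. In pL2_FXR it was 4.45, 4.69 and 4.03 against 4.07, 3.12 and 3.40 in FXR, with overlap. At Freising the chow means were 3.69 (pL2) and 3.75 (WT), and the HFD means were 4.00 in both. The mean difference was 0.42 ± 0.19 (limma, adjusted p = 0.0789), and it passed without replicate 1 of FXR (adjusted p = 0.0466) or replicate 1 of pL2_MRI_chow (0.0428), and with array quality weights, cyclic loess or the compared groups alone (0.0237 to 0.0457). Csf2, the granulocyte-macrophage factor, stayed below the array median in all 48 arrays, between 1.98 and 3.52. Its pL2_MRI_chow arrays (3.15, 3.21 and 3.11) were above the WT_MRI_chow arrays (3.03, 2.51 and 1.98), as in 16.8% of all tested genes. With no filter that difference was 0.65 ± 0.24 (limma, adjusted p = 0.0574), and over the 4 backgrounds it was 0.19 ± 0.12 (adjusted p = 0.280). A second Csf2 probe set, which correlated with the one used at r = 0.20 over the 48 arrays, had a mean of 2.80 in pL2_MRI_chow and 2.79 in WT_MRI_chow.

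Of the 8 other tested colony stimulating factor ligands and receptors, 5 rose and 1 fell in the mean transgene comparison (median of 0.43). Csf3r, the receptor of Csf3 and itself a neutrophil marker, rose by 2.04 ± 0.28 (limma, adjusted p = 1.19e-06), and Il34, a ligand of the macrophage receptor, by 1.09 ± 0.18. The receptor subunit genes Csf2rb2, Csf2rb and Csf2ra rose by 0.57 ± 0.16, 0.49 ± 0.16 and 0.37 ± 0.12. Csf1, the macrophage colony stimulating factor, fell by 0.48 ± 0.14.

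Tnf, the tumour necrosis factor of macrophages, neutrophils and T cells, had the largest difference of the 10 genes. In MRI chow mice it stood at 6.11, 6.62 and 7.07 with the transgene and at 4.38, 4.35 and 4.44 without it. In the FXR line it stood at 5.97, 5.66 and 6.07 against 4.28, 4.26 and 4.78, and on HFD at Freising at 5.81, 6.70 and 5.91 against 4.15, 4.84 and 4.66. No transgenic array overlapped its controls in these 3 backgrounds. The same held, in the direction of higher, for 16.8% (MRI chow), 13.9% (FXR line) and 11.4% (HFD) of all tested genes. The nearest Tnf arrays were 5.66 and 4.78, in the FXR line. On chow at Freising the pL2 arrays, at 5.25, 5.10 and 5.47, overlapped the WT arrays at 4.64, 4.86 and 5.37. The mean difference was 1.39 ± 0.17 (limma, adjusted p = 1.45e-07), a 2.63-fold rise, and 12 of 12 transgenic arrays lay above their control mean, as was so for 5.14% of all tested genes.

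TNF receptor and NF-kB response genes rose in number: 12 of 16 tested were higher and 0 lower, with a median of 0.44 against -0.01 for all tested genes. Tnfaip2 rose by 2.30 ± 0.21 (limma, adjusted p = 2.58e-10) and Nfkbiz, an NF-kB cofactor, by 1.19 ± 0.11 (adjusted p = 2.28e-10). Birc3, an inhibitor of cell death, rose by 0.92 ± 0.10, and the NF-kB inhibitor Nfkbia by 0.81 ± 0.10. The receptor gene Tnfrsf1a rose by 0.41 ± 0.07 and the subunit gene Rel by 0.66 ± 0.11.

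Nos2 had the widest spread within groups of the 10 genes (a within-group SD of 0.91). In pL2_MRI_chow it was 3.35, 4.71 and 5.19 against 3.36, 4.02 and 3.41 in WT_MRI_chow, with overlap. In pL2_FXR it was 4.05, 4.31 and 3.98, all above the FXR arrays at 3.02, 2.92 and 3.80, as in 13.9% of all tested genes. The mean transgene difference was 0.60 ± 0.36 (limma, adjusted p = 0.193), with a 95% interval from -0.12 to 1.33; without the 9 arrays high in hepatocyte or enterocyte markers it was 0.59, with an adjusted p of 0.0305. With the title suffix, an ending 2 or 3 of some sample titles, as a covariate it was 1.13 (adjusted p = 0.0197), and in a fit of the compared groups alone the adjusted p was 0.0361. At Freising every pL2_Freising_chow title, most pL2_Freising_HFD titles and no WT title had the suffix. The suffix and the transgene thus largely coincided there, and that fit cannot separate them well. Of 10 other arginine and nitric oxide genes 2 rose and 1 fell (median of -0.02): Arg1, which competes with Nos2 for arginine, rose by 1.55 ± 0.28 (adjusted p = 5.32e-05), Gch1, which makes the cofactor of nitric oxide synthases, by 0.78 ± 0.15, and the neuronal synthase gene Nos1 fell by 0.93 ± 0.22.

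**Figure D2:**
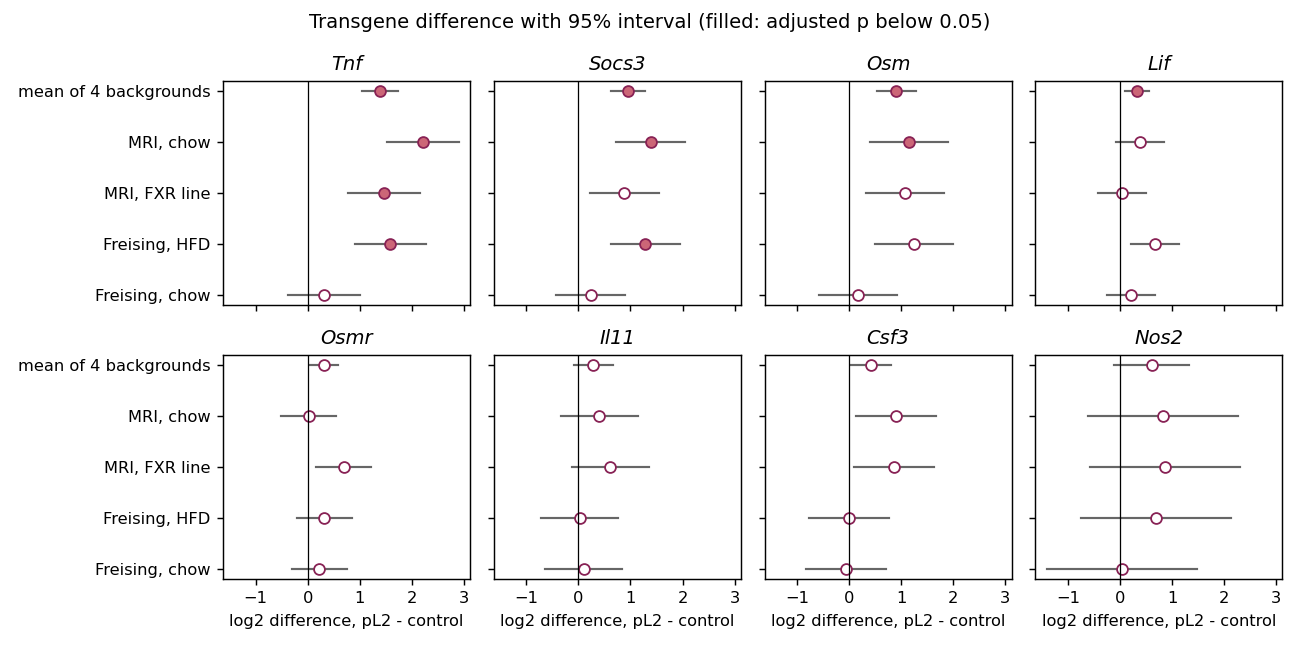
Difference in log2 signal between transgenic and control arrays (x axis) for the 8 tested genes, as the mean of 4 backgrounds and within each (y axis); lines are 95% intervals and filled points passed an adjusted p of 0.05. Tnf passed in the mean and in 3 backgrounds, and in Freising chow all 8 intervals include 0.

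The transgene's own pathway gave the reference for these differences. Il1b rose by 2.43 ± 0.32 (limma, adjusted p = 7.63e-07) in the mean comparison. Whether its probe set also reads transgene RNA was not checked. Its group means were 4.23 to 4.97 in the controls and 5.65 (Freising chow), 7.52 (Freising HFD), 7.21 (pL2_FXR) and 7.77 (MRI chow) with the transgene. The receptor antagonist gene Il1rn rose by 2.13 ± 0.18 and the receptor gene Il1r1 by 0.63 ± 0.11. In all, 6 of 10 IL-1 axis genes rose and 1, Il18, fell (by 0.42 ± 0.15).

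Neutrophil markers moved with these genes. Of 16 listed 13 were tested, 12 rose and 0 fell in the mean comparison, and S100a8 rose by 6.32 ± 0.35 (limma, adjusted p = 2.98e-15). The mean of the 13 was 4.22 to 6.15 in the 12 control arrays and 6.26 to 8.73 in the 12 matched transgenic arrays, lowest in pL2_Freising_chow (6.26 to 6.65) and highest in replicate 2 of pL2_Freising_HFD. The granule genes Camp, Mpo and Elane of this list were not above the filter. Macrophage markers had 2 higher and 2 lower of 11, and T and NK cell markers 3 higher and 0 lower of 7. Within groups, over the 48 arrays and with group means removed, the neutrophil mean correlated with Osm at r = 0.65, with Tnf at r = 0.63, with Socs3 at r = 0.51 and with Il11 at r = 0.12; these arrays share tissue makeup and normalisation, and the r are descriptions. Whole tissue does not show which cells made the marker transcripts, and the part of neutrophil number in the cytokine differences was not tested.

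**Figure D3:**
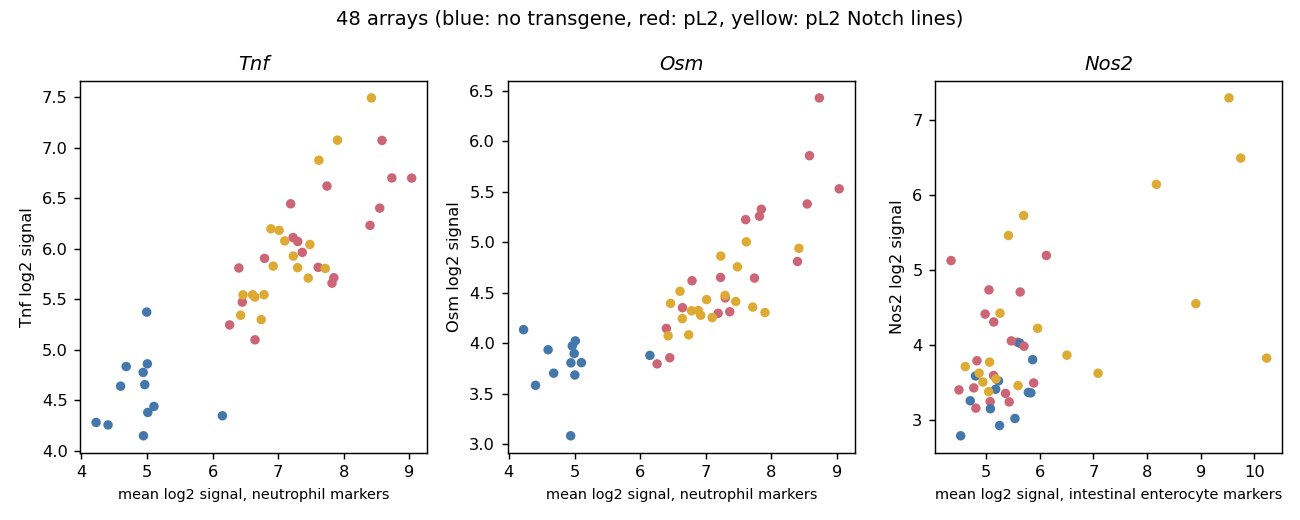
Log2 signal of Tnf and Osm (y axes) against the mean log2 signal of the 13 tested neutrophil markers, and of Nos2 against that of 10 enterocyte markers (x axes), for 48 arrays coloured by group type. Tnf and Osm are higher in arrays with more neutrophil marker signal, and the 3 highest Nos2 values fall in arrays with an enterocyte mean above 8.

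The single backgrounds were tested as well. At MRI on chow 3 of 8 genes were called, all higher (23% of all genes were called, 10.3% higher): Tnf by 2.21 ± 0.34 (limma, adjusted p = 3.92e-05), Socs3 by 1.39 ± 0.33 (adjusted p = 0.00223) and Osm by 1.15 ± 0.37 (adjusted p = 0.0218). Osm there rested on single arrays: without replicate 3 of pL2_MRI_chow its difference was 0.75 (adjusted p = 0.193), and without replicate 3 of WT_MRI_chow the adjusted p was 0.0659. In the FXR line Tnf alone was called (10.1% of all genes were called, 5.15% higher), by 1.46 ± 0.34 (adjusted p = 0.00495), and Osm (1.07 ± 0.37, adjusted p = 0.0561) and Socs3 (0.88 ± 0.33, adjusted p = 0.0787) did not pass.

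On HFD at Freising, where 1.16% of all genes were called (0.919% higher), Tnf rose by 1.59 ± 0.34 (limma, adjusted p = 0.0106) and Socs3 by 1.29 ± 0.33 (adjusted p = 0.0381). Both calls were lost without replicate 2 of pL2_Freising_HFD, with differences of 1.31 and 0.89 and adjusted p of 0.244 and 0.678, or without replicate 1 of WT_Freising_HFD (adjusted p = 0.106 for both). Socs3 also lost its call without replicate 2 or 3 of WT_Freising_HFD. Osm (1.24 ± 0.37, adjusted p = 0.0859) and Lif (0.67 ± 0.23, adjusted p = 0.131) did not pass although their arrays did not overlap, as was so, in the direction of higher, for 11.4% of all genes. In a fit of the compared groups alone neither Tnf (adjusted p = 0.127) nor Socs3 (0.257) passed on HFD, and Osm did not at MRI (0.0607).

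These calls were recomputed with tissue makeup taken into account in 2 ways. Without the arrays high in hepatocyte or enterocyte markers, Osm at MRI was 1.21 and no longer passed (limma, adjusted p = 0.0515). The 8 tested skeletal muscle markers had array means of 6.55 to 6.95 in WT_MRI_chow and 4.27 to 5.63 in pL2_MRI_chow. When the array means of the squamous and of the skeletal muscle list entered the model, none of the calls within a single background passed: Tnf had differences of 1.53 at MRI, 1.31 in the FXR line and 1.32 on HFD at Freising (limma, adjusted p = 0.0601, 0.222 and 0.0704), Socs3 had 0.59 at MRI and 0.97 on HFD (adjusted p = 0.443 and 0.156), and Osm had 1.08 at MRI (adjusted p = 0.243). In the mean comparison Tnf and Osm still passed in that model, while Socs3 (0.63, adjusted p = 0.111) and Lif (0.22, adjusted p = 0.523) did not.

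On chow at Freising limma called 0 of the 8 genes, with 0 below an unadjusted p of 0.05, where 1.64% of all genes were called and 16.2% had an unadjusted p below 0.05; Tnf differed by 0.31 ± 0.34 (adjusted p = 0.696). The difference between the transgene effects on chow at Freising and at MRI was tested itself: it was -1.90 ± 0.48 for Tnf (limma, adjusted p = 0.0382), the 1 gene of the 8 called (1.76% of all genes were called, 0.866% lower), -1.15 ± 0.46 for Socs3 (adjusted p = 0.164) and -0.99 ± 0.52 for Osm (adjusted p = 0.307). The Tnf call was lost without any of 7 of the 12 arrays (replicates 1 and 3 of WT_MRI_chow, 2 and 3 of pL2_MRI_chow, 1 of pL2_Freising_chow, 2 and 3 of WT_Freising_chow), with differences of -1.66 to -1.95 and adjusted p of 0.0684 to 0.114. Reg3g (-3.35 ± 0.83, adjusted p = 0.0346) and Gch1 (-1.57 ± 0.43, adjusted p = 0.0485) were lower in the same test. Xist, the X inactivation transcript of female cells, was high in all 3 WT_MRI_chow arrays, in replicate 1 alone of pL2_MRI_chow and in none at Freising; with a sex-linked covariate the Tnf difference was -2.04 (adjusted p = 0.0530).

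High fat diet was compared with chow at Freising. In pL2 mice limma called 0 of 15242 genes (872, or 5.72%, had an unadjusted p below 0.05), and 3 of the 8 genes had an unadjusted p below 0.05: Osm (1.07 ± 0.37, adjusted p = 0.689), Tnf (0.87 ± 0.34, adjusted p = 0.742) and Socs3 (0.77 ± 0.33, adjusted p = 0.812). Replicate 2 of pL2_Freising_HFD held the highest value of its group in Tnf, Socs3, Osm, Nos2, Lif, Osmr and Csf3, all tested genes but Il11. In WT mice, where 0.164% of all genes were called, none of the 8 was (0 below an unadjusted p of 0.05, against 4.33% of all genes), and Tnf differed by -0.41 ± 0.34. The STAT3 response gene Reg3g was lower on HFD in WT mice (-2.71 ± 0.59, limma, adjusted p = 0.0330). The difference between the diet effects in pL2 and WT mice was 1.28 ± 0.48 for Tnf (adjusted p = 0.774), and 0.0197% of all genes were called.

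The IL8, pL2_FXR and Notch groups were all set against the same 3 pL2_MRI_chow arrays, so these comparisons are not independent. Xist was high in replicate 1 alone of pL2_MRI_chow and of the IL8 line at 12 months. It was high in all 3 arrays of pL2_FXR and of the IL8 line at 9 months. For IL8 at 12 months (1.82% of all genes called) none of the 8 genes was called and none had an unadjusted p below 0.05, against 17% of all genes; Tnf differed by -0.61 ± 0.34 (limma, adjusted p = 0.366) and Nos2 by -0.88 ± 0.71 (adjusted p = 0.566). All 10 endothelial markers were higher in the IL8 line in that comparison. Between 12 and 9 months in the IL8 line limma called 0 of all genes (1184, or 7.77%, at an unadjusted p below 0.05), and all 8 differences had intervals that include 0; Socs3 differed by -0.61 ± 0.33. At 9 months the IL8 line had the highest group means of Osm (5.24 ± 0.38, SD, n = 3) and Socs3 (6.34 ± 0.49), which overlapped with those of pL2_MRI_chow.

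In mice without the transgene, the FXR line was compared with WT_MRI_chow (2.12% of all genes called). None of the 8 genes was called; Osmr was lower without overlap (6.89, 7.36 and 7.02 against 7.56, 7.53 and 7.81), by -0.54 ± 0.26 (limma, adjusted p = 0.301), and 11.2% of all genes were lower without overlap. Of the listed pathway genes, Il1rn (-2.07 ± 0.35, adjusted p = 0.000735), Il1a (-2.20 ± 0.59, adjusted p = 0.0405) and Arg1 (-2.77 ± 0.56, adjusted p = 0.00470) were lower in the FXR line. Of 9 squamous markers 6 were lower too, with array means of 6.83 to 8.09 against 8.97 to 9.99; their part was not tested. With the transgene, pL2_FXR against pL2_MRI_chow (0.0853% of all genes called), none of the 8 was called and Tnf differed by -0.70 ± 0.34 (adjusted p = 0.675). The difference between the FXR line's effects with and without the transgene was -0.75 ± 0.48 for Tnf (adjusted p = 0.487) and 0.67 ± 0.37 for Osmr (adjusted p = 0.405), with 0.138% of all genes called.

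**Figure D4:**
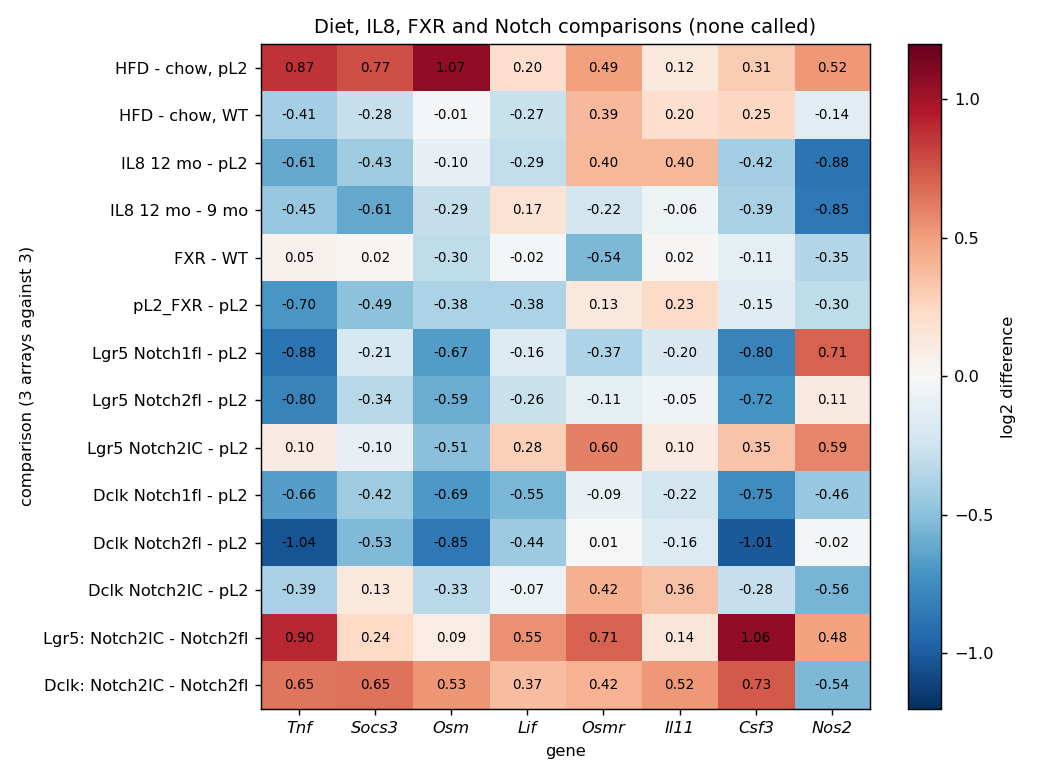
Log2 differences of the 8 tested genes (x axis) in 14 comparisons of diet, IL8, FXR and Notch groups (y axis), each of 3 arrays against 3; red is higher and blue lower in the first-named group. None passed an adjusted p of 0.05; the values run from -1.04 (Tnf, Dclk Notch2fl) to 1.07 (Osm, HFD in pL2).

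None of the 8 genes was called in any of the 6 Notch lines against pL2_MRI_chow. The reference mice were 12 months old, with no Lgr5 or Dclk allele and no tamoxifen recorded. Driver allele, tamoxifen and age at sampling therefore cannot be told apart from the Notch alleles in these comparisons. Sex-linked transcripts differed as well. Xist was 12.2, 4.92 and 3.83 in pL2_MRI_chow, was high in most arrays of the Notch lines, and was 11.0, 11.8 and 11.7 in Dclk with floxed Notch2. The percentages of all genes called were 0.144% (Lgr5 with floxed Notch1), 0.0525% (Lgr5 with floxed Notch2), 0.138% (Lgr5 with Notch2IC), 0% (Dclk with floxed Notch1), 0.256% (Dclk with floxed Notch2) and 0.0197% (Dclk with Notch2IC). Tnf had its lowest mean among the Notch lines in the Dclk line with floxed Notch2 (5.34, 5.83 and 5.52 against 6.11, 6.62 and 7.07 in pL2_MRI_chow), without overlap as in 8.99% of all genes, a difference of -1.04 ± 0.34 (limma, adjusted p = 0.178). Csf3 differed there by -1.01 ± 0.38 (adjusted p = 0.245) and Osm by -0.85 ± 0.37 (adjusted p = 0.312). With array quality weights 3 genes were called in this comparison, Tnf (adjusted p = 0.00335), Socs3 (0.00573) and Csf3 (0.0169).

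The Notch2IC lines were also compared with the floxed Notch2 lines of the same driver, where no array is shared with pL2_MRI_chow. In the Lgr5 lines (0.0722% of all genes called) Csf3 was 5.14, 5.36 and 4.15 with Notch2IC and 4.23, 3.79 and 3.44 with floxed Notch2, a difference of 1.06 ± 0.38 (limma, adjusted p = 0.564). Tnf was 7.08, 7.49 and 5.54 against 6.18, 5.93 and 5.30, a difference of 0.90 ± 0.34 (adjusted p = 0.589). In both genes replicate 3 of the Notch2IC line lay within the range of the floxed line; this array had an enterocyte marker mean of 10.2. The Tnf difference rested on single arrays: without replicate 3 of the Notch2IC line it was 1.48 and passed (adjusted p = 0.0251), while without replicate 2 of that line it was 0.51 (adjusted p = 0.637). Without all 9 arrays high in hepatocyte or enterocyte markers, which leaves 2 arrays in each of these lines, it was 1.54 (adjusted p = 0.0532). Lif was 4.70, 4.77 and 4.94 with Notch2IC and 3.91, 4.45 and 4.40 with floxed Notch2. Osmr was 8.61, 8.55 and 7.61 against 7.65, 7.43 and 7.57. Neither Lif nor Osmr was called in the main fit. In the Dclk lines (0.0328% of all genes called) limma called 0 of the 8, with 0 below an unadjusted p of 0.05 (5.20% of all genes).

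**Figure D5:**
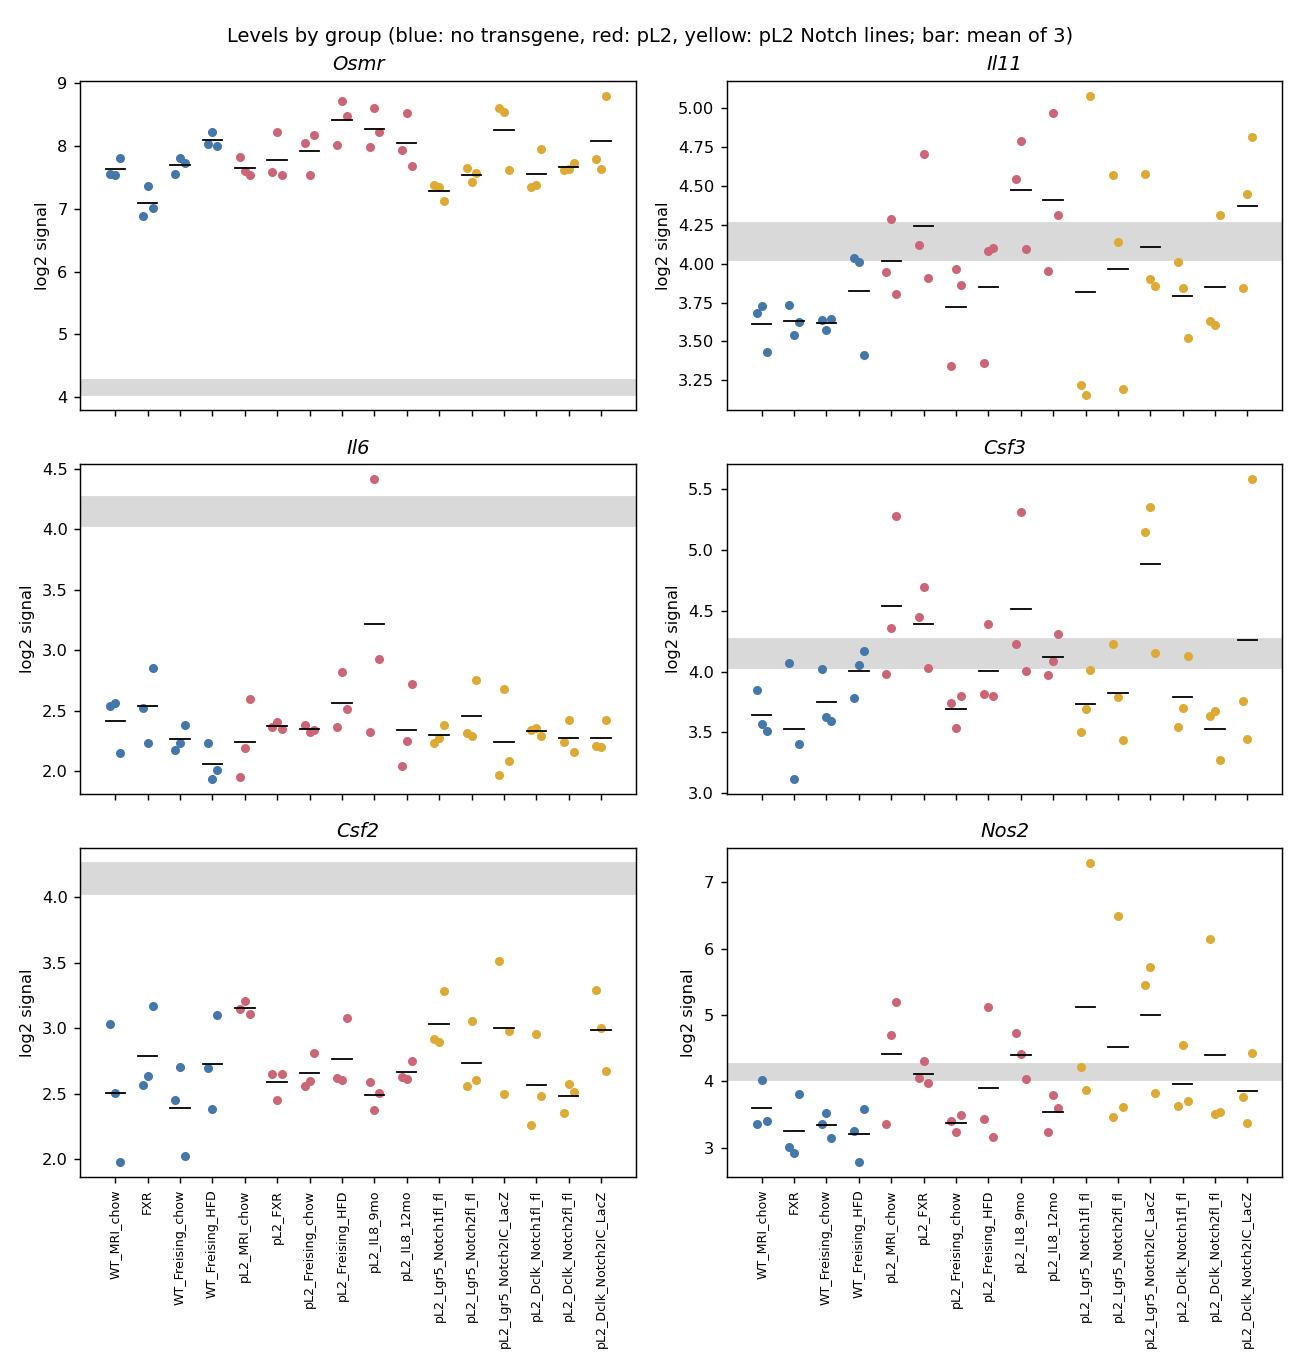
Log2 signal of Osmr, Il11, Il6, Csf3, Csf2 and Nos2 (y axes, each with its own range) in the 16 groups (x axis); points are arrays, bars are means of 3 and the grey band spans the 48 array medians. Il6 and Csf2 lie below the band except for 1 Il6 array at 4.41, and Nos2 reaches 7.29 in an Lgr5 line.

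Nos2 had single high arrays in the Notch lines: 7.29 in replicate 3 of Lgr5 with floxed Notch1 (4.22 and 3.86 in the others), 6.49 in replicate 2 of Lgr5 with floxed Notch2 (3.46 and 3.62) and 6.14 in replicate 1 of Dclk with floxed Notch2 (3.50 and 3.55). These 3 arrays had enterocyte marker means of 9.52, 9.74 and 8.17. Of the 5 arrays with a mean above 8 the other two, replicate 3 of Lgr5 with Notch2IC and replicate 2 of Dclk with floxed Notch1, had Nos2 at 3.82 and 4.55. In the remaining 43 arrays Nos2 reached at most 5.73, in replicate 2 of Lgr5 with Notch2IC, whose enterocyte mean was 5.70. The part of intestinal cells in the Nos2 signal was not tested.

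Across groups, the means of Tnf, Socs3 and Osm were lowest in the 4 groups without the transgene. Tnf ranged from 4.39 ± 0.05 (SD, n = 3) in WT_MRI_chow to 6.70 ± 1.03 in Lgr5 with Notch2IC, and its lowest transgenic group, pL2_Freising_chow (5.27 ± 0.19), overlapped with the next group below it, WT_Freising_chow (4.96 ± 0.38). Of the 36 transgenic arrays, 34 exceeded all 12 control arrays in Socs3, 32 in Tnf and 32 in Osm; the counts were 17 for Il11, 16 for Nos2, 12 for Csf3, 10 for Lif, 8 for Osmr, 4 for Csf2 and 2 for Il6. How many of all tested genes had such an order of groups or arrays was not computed. In the mean transgene comparison 35.6% of all tested genes were called, so these counts do not set the genes apart from others.

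Within groups the strongest pairings among the 10 genes were Socs3 with Nos2 (r = 0.74 over 48 arrays with group means removed), Socs3 with Csf3 (0.66), Csf3 with Tnf (0.62) and Il11 with Socs3 (0.61). Tnf and Osm, which were both raised with the transgene, correlated at 0.29 within groups and at 0.70 over all 48 arrays. Over all 48 arrays the tested genes most like Tnf were Bcl3 (r = 0.89), Lcn2 (0.88) and the neutrophil attractant Cxcl5 (0.88). Those most like Osm were Acod1 (0.88), Tarm1 (0.88) and Csf3r (0.87), and those most like Socs3 were Bcl3 (0.87), Sbno2 (0.87) and Hs3st1 (0.86). Nos2 was most like Bcl2l15 (0.77), Gda (0.76) and Trim15 (0.75), and Csf3 most like Il4ra (0.74), Odaph (0.73) and Cnnm2 (0.71). For Il11 the nearest were Stc1 (0.72), Nrg1 (0.69) and Hs3st1 (0.67), for Osmr Rlf (0.71), Cd80 (0.70) and Dus4l (0.69), and for Lif Cc2d1a (0.67), Slc1a1 (0.61) and Rnf19b (0.59). Of the 2 untested genes, Il6 was nearest to Ly6a2 (0.65), Timp1 (0.63) and Ngp (0.62), and Csf2 to Slc4a5, Vwa7 and Entpd8 (0.51, 0.51 and 0.50). Il6 exceeded its array median in 1 array and Csf2 in 0. These r therefore rest on signals near the bottom of the range, and each is the highest found among 15242 genes.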

How the data were processed

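Total RNA from whole junction tissue was measured on Affymetrix arrays, 1 per sample. The values the authors deposited are log2 signals of probe sets, made with RMA in Affymetrix Expression Console per the submitters' processing notes; the version and genome build are not given in the sources used here. RMA includes quantile normalisation, which gives all arrays nearly the same distribution, so a shift in total RNA content is not visible. Of 34390 probe set entries 23521 carried 1 gene symbol, 1814 several and 9055 none; only the first kind was used, and a gene was read from the entry with the highest mean.

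The 15242 genes that exceeded an array's median on 3 or more arrays were tested with limma 3.58.1 in R 4.3.3: 1 mean for each of 16 groups over 48 arrays, moderated variances (32 residual degrees of freedom), 22 two-sided comparisons and Benjamini-Hochberg adjustment within each. The procedure was tested on simulated data. No 2 arrays were identical. The number of arrays, 3 per group, limits the precision.

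The 10 genes and the gene lists were chosen with earlier results of these data known. Named were all 10 genes, up to 6 called genes per list and comparison by smallest p, the 3 tested genes most correlated with each of the 10, and Il1b, Il1rn and Il1r1; other genes and arrays were singled out after their values were seen. Alternatives were cyclic loess, array quality weights, a stricter or no filter, a mean over a gene's probe sets, robust moderation with a trend, covariates (sex-linked score, title suffix, squamous and skeletal muscle marker means), a fit of the compared groups alone, leaving out 9 arrays high in hepatocyte or enterocyte markers, and leaving out each array.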

Additional observations from a re-analysis of the deposited data

Results flagged for a closer look

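The transgene effect on Tnf differed between the facilities by a test of the difference itself: on chow it was smaller at Freising than at MRI by a log2 difference of -1.90 ± 0.48 (limma, adjusted p = 0.0382; 0.31 ± 0.34 at Freising and 2.21 ± 0.34 at MRI, 3 arrays a group). Over the alternatives the adjusted p ranged from 0.00105 to 0.310. The Freising and MRI arrays also differed in sex-linked transcripts, and neutrophil marker means were 6.26 to 6.65 in pL2_Freising_chow and 7.23 to 8.58 in pL2_MRI_chow; their part was not tested.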

How the results depend on the processing

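No paired analysis was possible because the labels carry no replicate numbers and no pairing of samples. Of 3188 recomputed differences of the 8 tested genes, none that was called changed sign. In all, 3119 kept their side of the threshold, 36 lost it and 33 gained it. Most of the 3119 were differences not called in the main fit that stayed uncalled. The 36 losses came only from differences called there. Of the 22 counts of called genes, 15 kept within 1.5 times under all alternatives run, and all 15 were counts of 0. In the main fit 17 of the 22 counts were 0, and every count above 0 changed under some alternative. With squamous and skeletal muscle covariates, the mean transgene comparison had 2 calls (Tnf and Osm) in place of 4, and there were 0 at MRI, on HFD at Freising, in the FXR line and for the facility difference. With the compared groups alone, 7 were called in the mean comparison, 2 in the FXR line, 0 on HFD at Freising and 0 for the facility difference. With array quality weights, 4 were called on HFD at Freising, 2 in the FXR line, 2 for the facility difference and 3 in the Dclk line with floxed Notch2. With the mean of all probe sets, 1 was called on HFD at Freising, where Socs3 differed by 0.78 (limma, adjusted p = 0.116). In the FXR line 2 were called with cyclic loess and 2 with the title suffix covariate. The facility difference had 0 with the sex-linked or the title suffix covariate, and on chow at Freising the title suffix coincided with the transgene. Leaving out single arrays gave 3 to 5 calls in the mean comparison, 2 to 4 at MRI, 0 to 3 on HFD at Freising, 1 to 2 in the FXR line, 0 to 2 for the facility difference and 0 to 1 between the Lgr5 Notch2IC and floxed Notch2 lines. The causes of these changes were not tested. Groups of 3 and, for Il6 and Csf2, signals near the bottom of the range limit what can be seen.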
